A study of Arabidopsis thaliana with 15 samples.

Results

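The stele is the central cylinder of the root, and its expression was set against the other sorted root populations of Arabidopsis thaliana, ecotype Columbia. All arrays whose titles name the stele were taken, 3 of the 15 arrays in the series, and the other 4 populations had 3 arrays each. The stele cells carried pWOL::GFP, the columella cells Pet111, the cells of epidermis and lateral root cap pWER::GFP, the cortex cells pCOR::GFP, and the cells of endodermis and quiescent center pSCR::GFP. Seedlings of every population were 5 days old and had been kept for 3 h on medium without sulfur. Their roots were digested to protoplasts and sorted by fluorescence, so each population is what a reporter's promoter marks and not a dissected tissue. Full-medium roots were not analysed here, and no difference below is a response to sulfur.

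The stele holds xylem, phloem, the procambial cells between them and the pericycle around them. Xylem carries water and minerals upward and phloem carries sugars and other compounds between organs, while the pericycle gives rise to lateral roots. HD-ZIP III transcription factors such as PHV pattern xylem, and the bHLH transcription factor LHW promotes the divisions that set the size of the vascular cylinder.

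The arrays did not all resemble their labels. Stele replicates 2 and 3 correlated at 0.962, a value taken over tested probe sets, whose levels depend on each other. Stele replicate 1 correlated at 0.845 or less with both of them and lay nearest to epidermis replicate 3 (r = 0.965). Epidermis replicate 2 lay nearest to stele replicate 2 (r = 0.973) and reached at most 0.826 with its own population. The labels were kept as given, and every comparison was made on the 15 arrays as labelled and again on 13 arrays, without stele replicate 1 and epidermis replicate 2. Array medians of the deposited signal ran from 46.1 to 80.9, and precision is limited by how few arrays each population had. The highest medians were those of epidermis replicate 2 (80.9) and stele replicates 2 (77.3) and 3 (76.3), and all other arrays had 65.1 or less. On 13 arrays the array median and the stele label thus cannot be told apart.

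**Figure D1:**
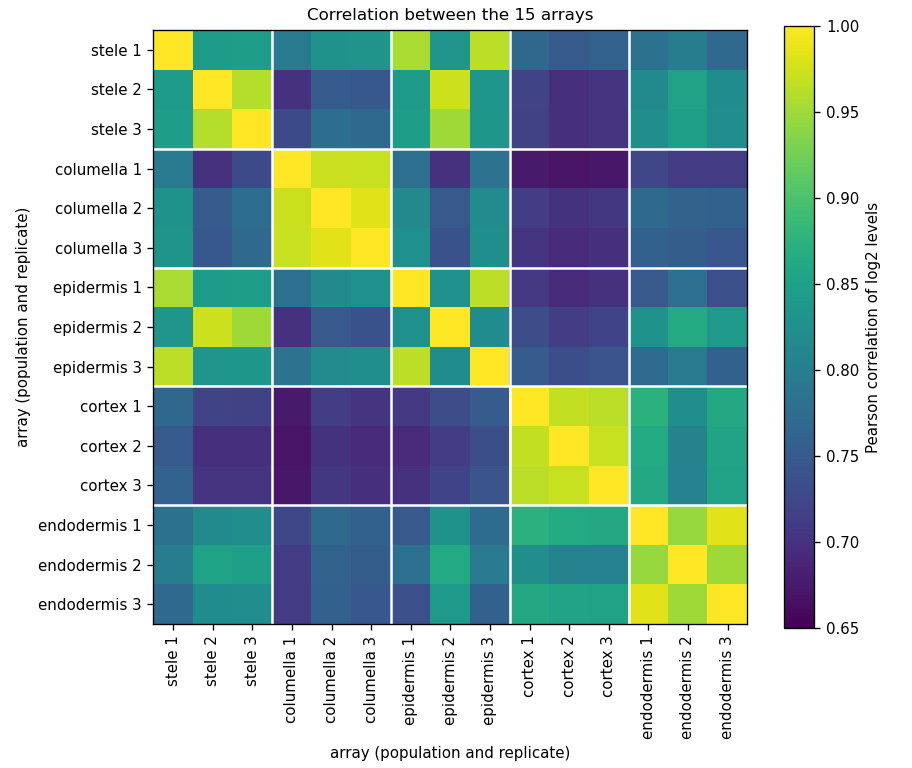
Pearson correlation of log2 levels between the 15 arrays, with the population and replicate on each axis. Stele replicate 1 is nearest to epidermis replicate 3 (0.965) and epidermis replicate 2 to stele replicate 2 (0.973), while stele replicates 2 and 3 correlate at 0.962.

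The question of the first comparison was which genes the stele expressed at a higher or lower level than the average of the other 4 populations. Levels are log2(signal + 16) after quantile normalization, on which a signal of 0 is 4. A probe set, the array's unit of measurement for a transcript, was called when limma gave an adjusted p under 0.05 and a difference of at least 1 on that log2 scale. As labelled, 1048 of 16126 tested probe sets were higher in stele (6.50%) and 950 were lower (5.89%). With 13 arrays, 2039 of 15911 were higher (12.8%) and 1737 were lower (10.9%). Called in both were 992 probe sets as higher (6.23% of those tested in both) and 796 as lower (5.00%), and none was called in opposite directions. The runs share 13 arrays and are not independent. The labelled counts moved with single stele arrays: 1789 were higher and 1439 lower without stele replicate 1, and 657 were higher without stele replicate 2. The counts shared with the 13-array run were then 1732 and 1403 without stele replicate 1, and 557 higher without stele replicate 2. Under the deposited scaling, 63.0% of the labelled calls were higher (1236 higher, 726 lower), against 52.5% after quantile normalization. With 13 arrays that scaling gave 66.9% (2556 higher, 1264 lower), against 54.0%, and it moved the median difference of all probe sets to 0.13, against -0.04. In sorted bulk RNA, fewer cells of a type and less RNA per cell cannot be told apart.

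**Figure D2:**
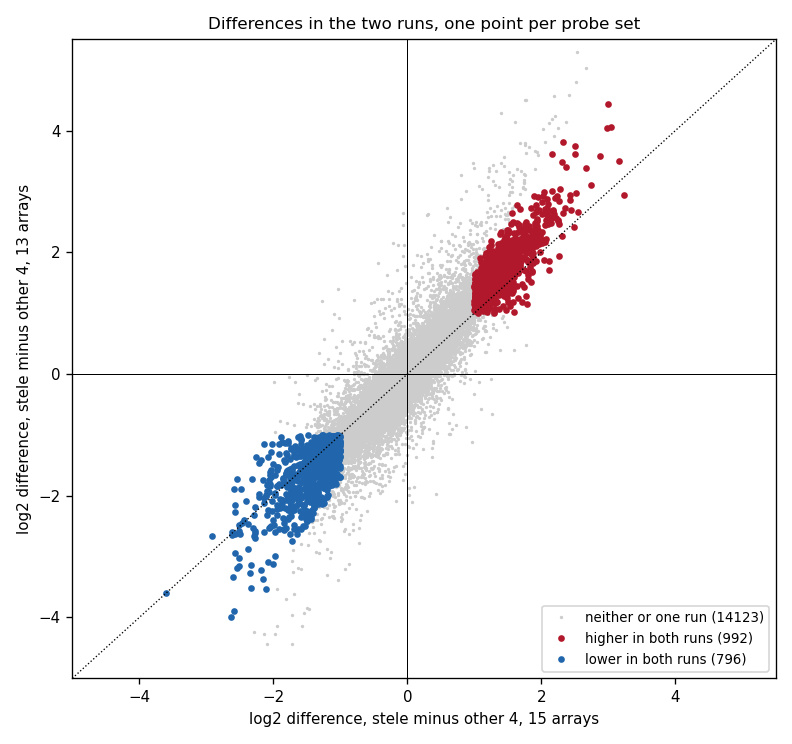
Each point is a probe set tested in both runs, with the log2 difference of stele minus the mean of the other 4 populations on 15 arrays (x axis) and on 13 arrays (y axis). The 992 probe sets higher in both runs are red, the 796 lower in both are blue, and the dotted line marks equal differences.

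The population that the stele was set against mattered. As labelled, stele differed from epidermis in 0 of 16126 probe sets by limma, in either direction, with 840 at an unadjusted p under 0.05. Against the cortex, 2864 probe sets were higher in stele and 2676 lower, against the columella 2083 and 2116, and against the endodermis 1432 and 1621. With 13 arrays the comparison with epidermis gave 1811 higher and 1657 lower. Of the 992 probe sets higher in both runs, 834 (84.1%) had the epidermis as the highest of the other populations on the 13 arrays. Of the 796 lower in both runs, 376 had their highest other level in the cortex, 282 in the columella, 136 in the endodermis and 2 in the epidermis. Stele replicate 1, which lay nearest to an epidermis array, enters the labelled call. The epidermis share of the 992 is therefore not independent of that array. Of the lower set, stele lay below the mean of every other population in 516 (64.8%). Probe sets higher in stele than in each other population separately numbered 0 as labelled, with 3 at unadjusted p, and 442 with 13 arrays (2.78%). Lower than in each were 0 as labelled, with 2 at unadjusted p, and 209 with 13 arrays (1.31%). Of those 442 and 209 probe sets, 236 and 113 were also called against the mean of the other 4 as labelled. Among the 442, the highest other level lay in epidermis in 166 (37.6%), endodermis in 159 (36.0%), columella in 86 and cortex in 31. Stele replicates 2 and 3 correlated at 0.833 to 0.846 with epidermis replicates 1 and 3 and at 0.818 to 0.851 with endodermis.

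The 3 genes taken to mark the stele were high on stele replicates 2 and 3 and on epidermis replicate 2. PHV had log2 levels of 4.52, 8.59 and 9.14 in stele replicates 1, 2 and 3, against 7.33, 6.98 and 7.35 in columella, 5.56, 9.11 and 5.37 in epidermis, 4.26, 4.20 and 5.06 in cortex and 6.12, 6.87 and 6.39 in endodermis. Stele replicate 1 was lower than the columella, epidermis and endodermis arrays, and the groups overlapped. The difference of PHV was 1.20 ± 0.82 (SE) with adjusted p = 0.298 as labelled, and 2.95 ± 0.26 with adjusted p = 3.2e-07 on 13 arrays, a 7.72-fold difference. LHW had levels of 8.32, 10.06 and 10.53 in stele, against 7.48, 8.02 and 7.93 in columella, 8.60, 9.98 and 7.87 in epidermis, 6.6, 7.48 and 7.24 in cortex and 8.53, 9.47 and 8.97 in endodermis. It was called in both runs, by 1.46 ± 0.44 as labelled (adjusted p = 0.0251) and by 2.26 ± 0.27 on 13 arrays (adjusted p = 5.87e-06). The labelled call was lost without stele replicate 2 (1.25, adjusted p = 0.128) and without stele replicate 3 (1.01, adjusted p = 0.182).

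The gene scpl35 belongs to the serine carboxypeptidase-like family, enzymes that cleave peptides or transfer acyl groups. Its levels were 4.39, 9.98 and 10.25 in stele, against 5.63, 5.18 and 5.84 in columella, 4.65, 9.36 and 4.99 in epidermis, 4.36, 4.41 and 4.34 in cortex and 6.37, 6.77 and 6.29 in endodermis. Stele replicate 1 lay near the floor of the scale, while epidermis replicate 2 lay near the other stele arrays. The difference was 2.52 ± 1.03 as labelled (adjusted p = 0.0856) and 4.81 ± 0.23 on 13 arrays (adjusted p = 7.89e-10), a 28-fold difference. It was the largest there among named genes that passed the filter and were higher than in each other population. Of the marker genes, LHW alone held in both runs, and PHV, LHW and scpl35 were each higher than in each other population on 13 arrays. The wider vascular lists were covered thinly. Over all fixed gene lists, which held 632 entries, 63 genes had a named probe set. For phloem 2 genes had one and for cytokinin 2, and 0 of either passed the filter on dim probe sets. The other entries of these lists could not be examined. Of 6 tested genes of procambium and vascular peptide signalling, 0 were called in either run. Among all probe sets, 6.50% were higher and 5.89% lower as labelled, and 12.8% and 10.9% on 13 arrays. At such shares, 6 genes are too few to show an absence. Of 5 tested genes of xylem secondary walls and cell death, 0 were higher in both runs, beside 6.23% of all probe sets. IRX15-L, which takes part in making xylan, was lower in both (-1.76 and -1.40), beside 5.00%. AT5G66390 differed by -0.43 as labelled and was called higher on 13 arrays (1.82, and 1.24 without stele replicate 2). The others were not called, IRX15 at -0.15 and 0.26, HCT at -0.43 and 0.28 and GUT2 at -0.55 and -0.54. The median of the 5 was -0.43 as labelled and 0.26 on 13 arrays.

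**Figure D3:**
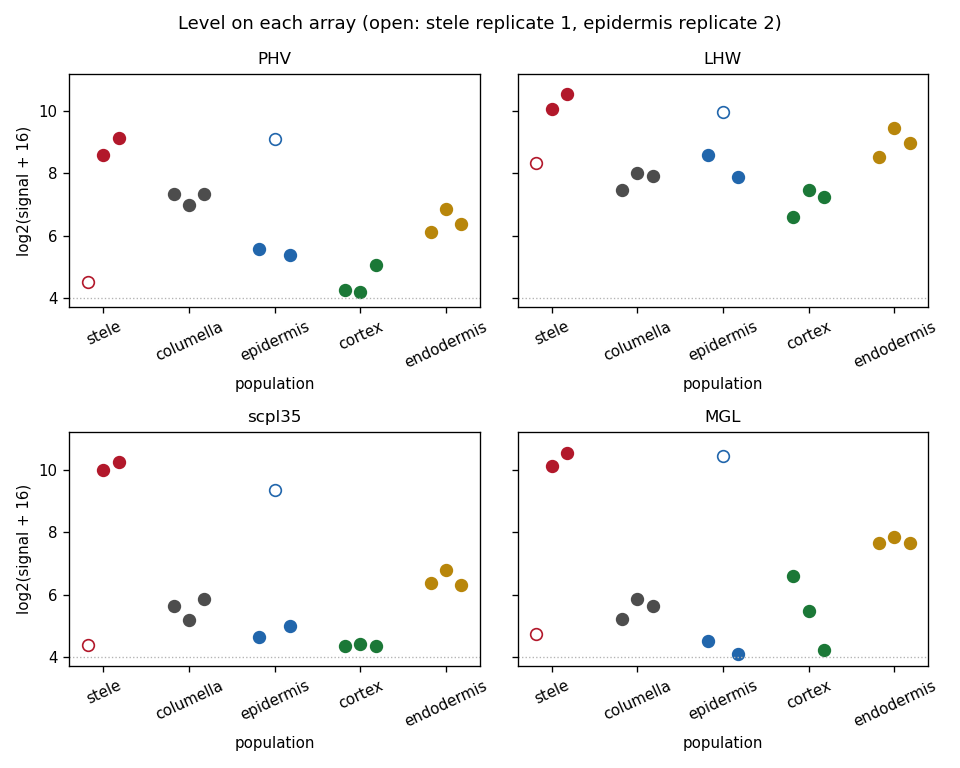
Level on each array, log2(signal + 16), of PHV, LHW, scpl35 and MGL by population, with replicates 1, 2 and 3 from left to right. Open points are stele replicate 1 and epidermis replicate 2, and the dotted line at 4 is a signal of 0. PHV, scpl35 and MGL are high on stele replicates 2 and 3 and on epidermis replicate 2.

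Markers of cortex, endodermis and columella were low in stele against the populations they mark. Summed over 5 cortex markers, the quantile-normalized signal was 248 on stele replicate 1 and 216 to 343 on stele replicates 2 and 3, against 3300 to 3930 in cortex. The 3 endodermis markers summed to 76.0 on stele replicate 1 and 122 to 304 on replicates 2 and 3, against 4000 to 4790 in endodermis. In columella they summed to 47.0 to 67.8 and on epidermis replicates 1 and 3 to 59.9 to 65.8. The 3 quiescent center and stem cell markers summed to 38.4 on stele replicate 1 and 222 to 238 on replicates 2 and 3. In the population of endodermis and quiescent center they summed to 108 to 150, less than on those 2 stele arrays. The 4 columella and root cap markers summed to 829 on stele replicate 1 and 19.7 to 126 on replicates 2 and 3, against 10400 to 17100 in columella and 901 to 1020 on epidermis replicates 1 and 3. The 3 epidermis and root hair markers did not follow the split between the stele arrays. They summed to 642 on stele replicate 1 and ran from 84.9 to 645 on replicates 2 and 3, against 632 to 903 on epidermis replicates 1 and 3. On epidermis replicate 2 the epidermis markers summed to 708, within the range of its own label, the endodermis markers to 541, above every stele array, the cortex markers to 311 and the columella markers to 19.3. EXPA7, a root hair expansin, had levels of 8.05, 8.56 and 5.78 in stele, against 8.05, 8.41 and 8.68 in epidermis, and was not called in either run. The part of epidermal cells in the genes shared by stele and epidermis was not tested.

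Most genes of largest difference in both runs were high in stele and epidermis and low in cortex and columella. The labelled difference, which includes stele replicate 1, entered this choice of genes. Their high levels in epidermis are therefore not independent of that array. Among the 15 that led, 13 carry only a locus code in the annotation used here and are given by their values. AT3G12860 had levels of 9.67, 11.10 and 9.95 in stele, against 6.2, 6.24 and 6.41 in columella, 10.41, 10.85 and 9.93 in epidermis, 4.51, 4.28 and 4.47 in cortex and 5.90, 8.74 and 7.11 in endodermis. All stele arrays lay above all columella, cortex and endodermis arrays, and they overlapped those of epidermis. Its difference was 3.16 ± 0.43 as labelled (adjusted p = 0.000322) and 3.50 ± 0.45 on 13 arrays (adjusted p = 1.06e-05).

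AT3G51670 was also high against every other population on 13 arrays. Its levels were 8.26, 11.70 and 11.87 in stele, against 6.79, 7.46 and 6.90 in columella, 8.28, 11.48 and 8.41 in epidermis, 5.70, 4.22 and 5.90 in cortex and 8.96, 8.71 and 8.5 in endodermis. The difference was 3.00 ± 0.71 as labelled (adjusted p = 0.0077) and 4.44 ± 0.31 on 13 arrays (adjusted p = 2.55e-08). The labelled call was lost without stele replicate 2 (adjusted p = 0.0641) and without stele replicate 3 (adjusted p = 0.0683). The others by locus code were AT4G30800, AT3G15720, AT3G49960, AT3G53190, AT3G17160, AT2G43590, AT5G60030, AT1G79150, AT2G44860, AT3G28600 and AT4G15770, with labelled differences of 2.1 to 2.51. AT3G15720 lost its labelled call without stele replicate 2 (adjusted p = 0.114) or 3 (adjusted p = 0.0968), and AT3G53190 without stele replicate 2 (adjusted p = 0.0569). AT3G28600 had levels of 4.73, 8.40 and 8.05 in stele, and its labelled call (adjusted p = 0.0368) was lost without any of 11 single arrays, to an adjusted p of 0.233 without stele replicate 2. AT3G49960 lost its 13-array call without stele replicate 2 (1.01, adjusted p = 0.0845).

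**Figure D4:**
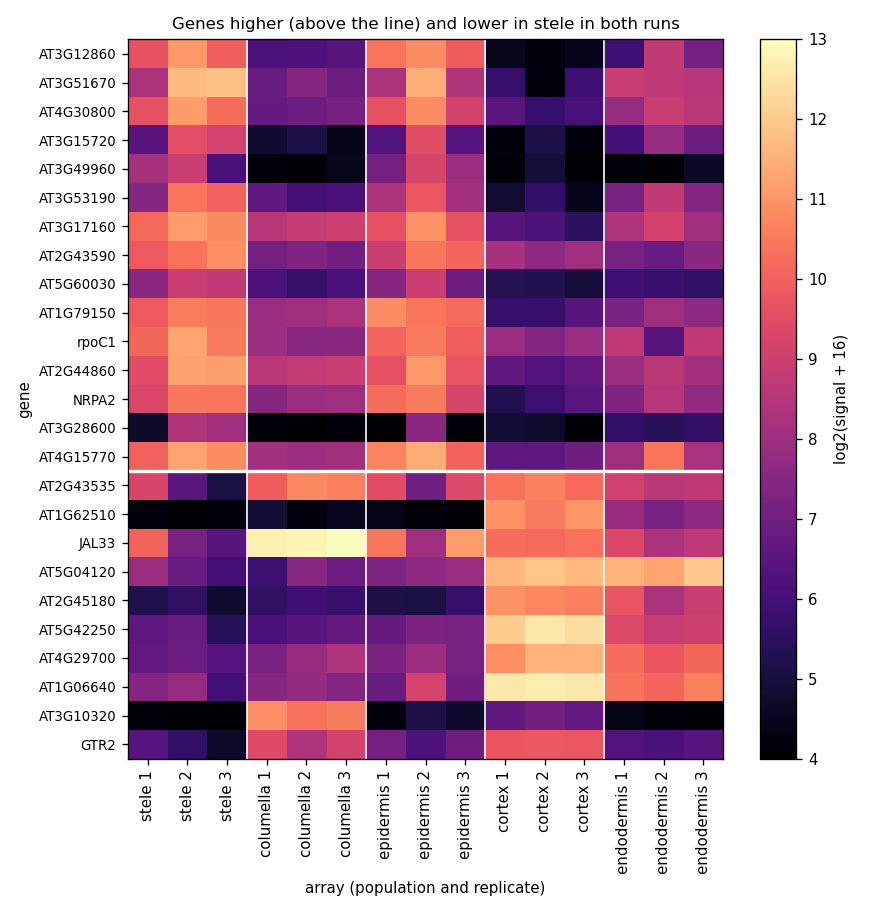
Level on each array, log2(signal + 16), of the 15 genes higher (above the white line) and the 10 genes lower in stele in both runs whose smaller difference was largest. Most of the upper genes are bright in stele and epidermis, and most of the lower genes are bright in cortex, endodermis or columella.

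The named genes among the 15 were NRPA2, which encodes a large subunit of RNA polymerase I, the enzyme that transcribes ribosomal RNA, and rpoC1, a subunit of the RNA polymerase that the plastid genome itself encodes. NRPA2 had levels of 9.30, 10.46 and 10.42 in stele, against 7.46, 7.91 and 8.03 in columella, 10.23, 10.51 and 9.24 in epidermis, 5.28, 5.85 and 6.47 in cortex and 7.31, 8.48 and 7.72 in endodermis. Only the epidermis overlapped the stele arrays. Its difference was 2.19 ± 0.34 as labelled (adjusted p = 0.000687) and 2.63 ± 0.31 on 13 arrays (adjusted p = 5.55e-06). Of 12 tested genes whose symbols name nuclear RNA polymerase subunits, 6 were higher in both runs, beside 6.23% of all probe sets, and 0 were lower in either. They were NRPA2, NRPA1, also of polymerase I (1.50 and 1.77 in the 2 runs), NRPC2 of polymerase III (1.63 and 1.80), and NRPB6A, NRPB6B and NRPB12, subunits that several nuclear polymerases share (1.05 to 1.11 as labelled). The median difference of the 12 was 0.85 as labelled and 1.02 on 13 arrays, against 0.00 and -0.04 over all probe sets. As labelled, 3 of the 12 were called without stele replicate 2. This family, like the others below that are not marker lists, was picked out after values had been seen.

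Several single genes that act on RNA or in ribosomes follow, chosen after their values were seen. They are no tested group, and such genes that were not called were not counted. RRP41L had levels of 8.01, 9.28 and 8.98 in stele, against 5.94, 6.65 and 6.32 in columella, 8.15, 8.84 and 7.4 in epidermis, 5.78, 5.35 and 6.11 in cortex and 6.10, 7.14 and 6.54 in endodermis. It resembles RRP41, a core subunit of the RNA-degrading exosome, and its difference was 2.06 ± 0.32 as labelled (adjusted p = 0.000765) and 2.53 ± 0.28 on 13 arrays (adjusted p = 2.92e-06). RRP41 itself differed by 1.24 and 1.78, but its labelled call was lost without stele replicate 2 (adjusted p = 0.0945) or 3 (adjusted p = 0.0656). YAO, a nucleolar protein of ribosomal RNA processing, differed by 1.59 and 1.97. PGY1, a protein of the cytosolic large ribosomal subunit, differed by 1.21 and 1.71, and by 0.99 without stele replicate 3, under the threshold. IMP4, whose yeast counterpart works in the processing of the small subunit's ribosomal RNA, differed by 1.16 and 1.94, and its labelled call (adjusted p = 0.0354) was lost without any of 9 single arrays. PPR596, a pentatricopeptide repeat protein of a family that acts on organelle RNA, differed by 2.09 and 2.88 and was higher than in each other population on 13 arrays.

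Of 67 tested plastid-encoded genes, 20 were higher in both runs, beside 6.23% of all probe sets, and 0 were lower in either. On 13 arrays 10 of 66 were higher than in each other population, beside 2.78% of all probe sets. Genes were counted singly, and their dependence on each other was not tested. By role, the 20 included 10 of 15 ribosomal protein genes and 3 of 4 RNA polymerase genes. The remaining polymerase gene, rpoB, was not tested on 13 arrays and so could not be called in both runs. Also among the 20 were 1 of 19 photosystem genes and 2 of 9 genes of the NADH dehydrogenase-like complex. ATP synthase and the cytochrome complex gave 2 of 12 genes. The difference between these groups was not tested. The median difference of the 15 ribosomal protein genes was 1.38 as labelled and 1.98 on 13 arrays, and that of the 19 photosystem genes was 0.18 and 0.37. Without stele replicate 2, 9 of the 67 genes and 4 of the 15 ribosomal protein genes were called as labelled.

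The gene rpoC1 had levels of 10.15, 11.28 and 10.48 in stele, against 7.94, 7.54 and 7.57 in columella, 10.10, 10.49 and 9.97 in epidermis, 7.91, 7.41 and 7.90 in cortex and 8.71, 6.41 and 8.76 in endodermis. Stele and epidermis lay above the other populations on every array. Its difference was 2.24 ± 0.39 as labelled (adjusted p = 0.00135) and 2.52 ± 0.41 on 13 arrays (adjusted p = 0.000112). For rpl22, a protein of the large plastid ribosomal subunit, the levels were 8.31, 10.74 and 10.58 in stele, against 7.47, 7.25 and 7.19 in columella, 8.82, 10.42 and 8.10 in epidermis, 7.54, 7.88 and 7.19 in cortex and 7.69, 6.52 and 7.95 in endodermis. It differed by 2.04 ± 0.49 as labelled (adjusted p = 0.00873) and by 2.99 ± 0.29 on 13 arrays (adjusted p = 7.67e-07). The labelled call was lost without stele replicate 2 (adjusted p = 0.0737) or 3 (adjusted p = 0.0688). The nuclear genes Cpn60beta2 and Cpn60beta3 encode chaperonin subunits that fold plastid proteins. They differed by 1.86 and 1.42 as labelled and by 1.96 and 1.83 on 13 arrays.

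**Figure D5:**
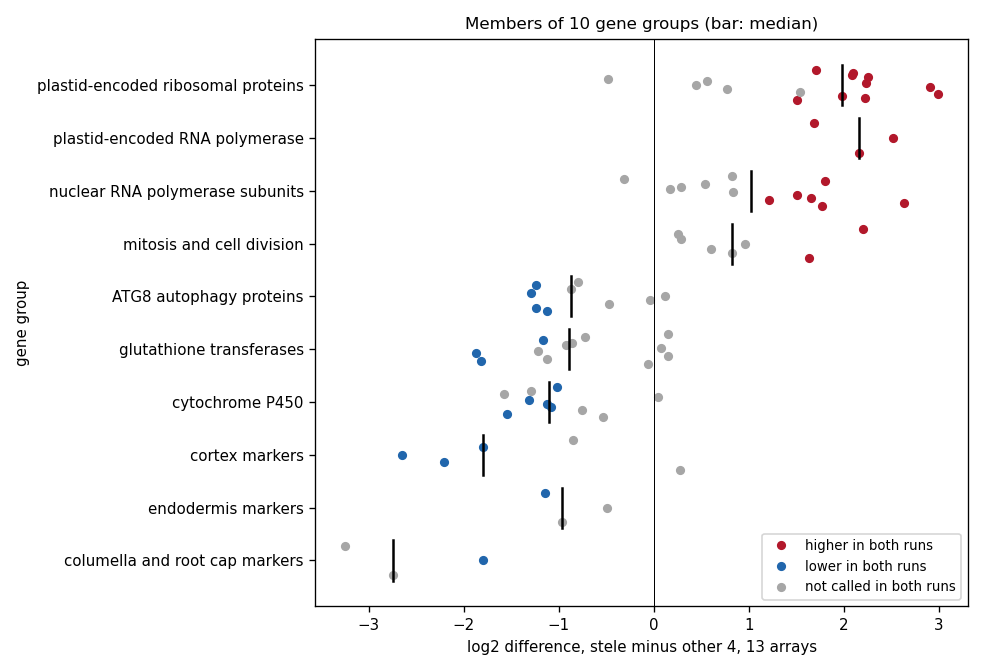
Log2 difference of stele minus the mean of the other 4 populations on 13 arrays for the tested members of 10 gene groups, one point per gene. Red and blue genes were called higher or lower in both runs, grey ones were not, and the bar is the group's median. The plastid-encoded ribosomal protein genes have a median of 1.98 and the cytochrome P450 genes of -1.10.

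Of 7 tested genes of mitosis and cell division, AUR1 and PRL were higher in both runs, beside 6.23% of all probe sets, and 0 were lower. The other 5 were not called. PRL, the MCM7 subunit of the helicase that opens DNA for replication, had levels of 8.77, 10.33 and 9.79 in stele, against 7.65, 8.07 and 8.09 in columella, 9.02, 9.83 and 9.34 in epidermis, 6.68, 5.77 and 6.22 in cortex and 7.70, 8.68 and 7.89 in endodermis. Stele lay above every columella, cortex and endodermis array and overlapped epidermis. The difference was 1.72 ± 0.31 as labelled (adjusted p = 0.00156) and 2.20 ± 0.26 on 13 arrays (adjusted p = 5.99e-06). AUR1, a mitotic kinase, differed by 1.23 and 1.63. AUR2 and BUBR1 differed by 0.85 and 0.98 as labelled, under the threshold of 1.

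TOPII, the topoisomerase that untangles DNA, was higher in stele than in each other population on 13 arrays. Its levels were 7.65, 9.51 and 9.05 in stele, against 6.58, 6.59 and 6.49 in columella, 7.67, 9.32 and 7.22 in epidermis, 4.23, 5.79 and 5.23 in cortex and 6.6, 7.04 and 6.85 in endodermis. It differed by 2.10 ± 0.43 as labelled (adjusted p = 0.00326) and by 2.80 ± 0.29 on 13 arrays (adjusted p = 1.47e-06). The chromosome-binding proteins 3xHMG-box2 and 3xHMG-box1 differed by 1.92 and 1.67 as labelled. BUB3.1 of the spindle checkpoint differed by 1.23 and 1.55, and Haspin, a kinase of mitotic histones, by 1.20 and 1.49. Haspin's labelled call was lost without stele replicate 2 (adjusted p = 0.0561). HTB1, a core histone, differed by 1.37 and 2.09, and its labelled call was lost without stele replicate 2 (adjusted p = 0.142) or 3 (adjusted p = 0.146). It was the only 1 of 6 tested histone genes called in either run, beside 6.23% of all probe sets higher in both. The median of the 6 was 0.36 as labelled and 0.6 on 13 arrays. POLA3, of the polymerase that primes DNA synthesis, differed by 1.27 and 1.81 and lost its labelled call in the same way (adjusted p = 0.0895 and 0.0607). The other tested gene of its replication list, POLD3, was not called (0.74 and 1.0). Genes of this paragraph were picked with their values in view and are no tested group.

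Of the 2 runs, only that of 13 arrays, where 2 stele arrays remained, gave genes higher in stele than in each other population. With array weights, the 15 arrays gave 288 such probe sets, and 263 probe sets were so called both there and on 13 arrays. Those weights were low for stele replicate 1 (0.187) and epidermis replicate 2 (0.164). On the 13 arrays, the genes of largest difference were scpl35, MGL, AT3G51670, AT4G20430, AT5G24240, AT1G28400, TBL36, AT3G15720, SBTI1.1 and AT3G28600. MGL encodes methionine gamma-lyase, which breaks down the sulfur amino acid methionine. It had levels of 4.72, 10.11 and 10.53 in stele, against 5.21, 5.84 and 5.62 in columella, 4.52, 10.43 and 4.08 in epidermis, 6.6, 5.46 and 4.21 in cortex and 7.66, 7.83 and 7.66 in endodermis. Stele replicate 1 and epidermis replicate 2 each lay with the other's population. The difference was 2.19 ± 1.20 as labelled (adjusted p = 0.194) and 4.57 ± 0.38 on 13 arrays (adjusted p = 1.73e-07), a 23.8-fold difference.

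TBL36 belongs to the TRICHOME BIREFRINGENCE-LIKE family, many of whose members acetylate wall polysaccharides. It had levels of 5.67, 10 and 10.17 in stele, against 6.44, 6.89 and 7.26 in columella, 5.67, 9.96 and 6.10 in epidermis, 4.60, 4.65 and 4.34 in cortex and 6.19, 7.55 and 6.80 in endodermis. It differed by 2.24 ± 0.87 as labelled (adjusted p = 0.0712) and by 4.05 ± 0.29 on 13 arrays (adjusted p = 2.54e-08). SBTI1.1, a protease of the subtilase family, differed by 1.82 as labelled (adjusted p = 0.13) and by 3.73 on 13 arrays (adjusted p = 9.27e-09). BBM, a transcription factor of the root stem cell region, differed by 1.23 as labelled (adjusted p = 0.189) and by 2.4 on 13 arrays (adjusted p = 2.31e-06). The other tested markers of quiescent center and stem cells were not called, AGL42 at -0.61 and -0.27 and CLE40 at -0.38 and -0.42. For the auxin-response repressor IAA29 the differences were 0.90 (adjusted p = 0.209) and 1.87 (adjusted p = 0.00043). Of 6 tested genes of its Aux/IAA family, 0 were higher in both runs, beside 6.23% of all probe sets. IAA33 was lower in both (-1.22 and -1.72), beside 5.00%. The labelled call of IAA33 was lost without stele replicate 2 (adjusted p = 0.0652) or 3 (adjusted p = 0.178). On 13 arrays 2 of the 6 were higher and 1 was lower, beside 12.8% and 10.9% of all probe sets.

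Genes higher with 13 arrays and not as labelled were led by scpl35, MGL, AT4G20430, AT5G24240 and AT2G37050. AT2G37050 had levels of 4.82, 10.80 and 10.88 in stele, against 9.76, 10.21 and 9.89 in endodermis, and was thus not higher than each population. The 13-array run could not test a gene that only the stele expressed, because a probe set had to pass the filter on 3 arrays. AT3G42800 had levels of 4.19, 9.67 and 9.84 in stele, against 4.74, 9.15 and 4.97 in epidermis, and was called as labelled (2.93, adjusted p = 0.0448) but not tested on 13 arrays. Without the filter it differed there by 5.14 (adjusted p = 1.87e-08). The labelled call was lost without any of 11 single arrays (adjusted p from 0.0541 to 0.0653), and it could not be tested without stele replicate 2, stele replicate 3 or epidermis replicate 2. Without the filter, 44 of the 6835 probe sets otherwise untested on 13 arrays were higher than in each other population, and 0 were lower.

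Genes called higher as labelled and not on 13 arrays were led by AT3G42800 and AT3G10680, neither tested there, and AT1G30870, AT2G45750 and AT5G49870. AT2G45750 had levels of 12.21, 10.63 and 10.17 in stele, against 8.2, 8.81 and 8.52 in columella, 12.21, 10.91 and 12.38 in epidermis, 9.03, 9.46 and 9.30 in cortex and 8.34, 8.45 and 8.65 in endodermis. It was highest on stele replicate 1 and on epidermis replicates 1 and 3, and differed by 1.48 as labelled (adjusted p = 0.00827) and by 0.77 on 13 arrays (adjusted p = 0.00397). It differed by 0.88 without stele replicate 1 alone.

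The genes that led among those lower in both runs had their highest levels in cortex or columella. AT1G62510, a cortex marker, had levels of 4.22, 4.11 and 4.20 in stele, against 4.91, 4.26 and 4.54 in columella, 4.42, 4.16 and 4.13 in epidermis, 10.96, 10.52 and 11.02 in cortex and 7.86, 7.14 and 7.63 in endodermis. Stele, columella and epidermis all lay near the floor. Its difference was -2.62 ± 0.20 as labelled (adjusted p = 1.57e-05) and -2.65 ± 0.24 on 13 arrays (adjusted p = 3.2e-07). Of 5 cortex markers 3 were lower in both runs, beside 5.00% of all probe sets, namely AT1G62510, AT3G21670 and AT1G09750. AT3G21670, which is NPF6.4 of the nitrate and peptide transporter family, differed by -1.78 and -1.80. AT3G10320 had levels of 4.17, 4.14 and 4.11 in stele, against 10.86, 10.35 and 10.52 in columella. The others that led by locus code, AT5G04120, AT2G45180, AT5G42250, AT4G29700 and AT1G06640, differed by -2.47 to -2.52 as labelled and had their highest mean levels in cortex.

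GTR2, a transporter that moves glucosinolates, which are sulfur-containing defence compounds, was lower in stele on every comparison with 13 arrays. Its levels were 6.42, 5.59 and 4.71 in stele, against 9.43, 8.37 and 9.16 in columella, 7.11, 6.21 and 6.92 in epidermis, 9.75, 9.82 and 9.79 in cortex and 6.31, 6.17 and 6.46 in endodermis. Stele overlapped epidermis and endodermis as labelled. The difference was -2.38 ± 0.30 as labelled (adjusted p = 0.000215) and -2.87 ± 0.25 on 13 arrays (adjusted p = 2.88e-07), a 7.33-fold lower level.

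The lectin gene JAL33 was lower in stele than in each other population on 13 arrays. It had levels of 10.05, 7.15 and 6.43 in stele, against 12.72, 12.82 and 13.27 in columella, 10.44, 8.03 and 11.14 in epidermis, 10.28, 10.19 and 10.35 in cortex and 9.31, 8.27 and 8.66 in endodermis. It differed by -2.58 ± 0.63 as labelled (adjusted p = 0.00939) and by -3.90 ± 0.25 on 13 arrays (adjusted p = 1.32e-08). AT2G43535 behaved alike, at -2.64 and -4.00. Both labelled calls were lost without stele replicate 2 (adjusted p = 0.0662 for JAL33 and 0.0553 for AT2G43535) or 3 (0.0862 and 0.0865).

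Others lower than in each population on 13 arrays were AT3G19430, AT5G62340 and AT5G35940. AT3G19430 had levels of 12.74, 6.78 and 6.02 in stele, against 14.14 on all 3 columella arrays, 12.82, 5.83 and 13.18 in epidermis, 7.79, 7.48 and 8.62 in cortex and 8.04, 8.27 and 8.45 in endodermis. It differed by -1.73 as labelled (adjusted p = 0.364) and by -4.44 on 13 arrays (adjusted p = 3.05e-09). TET3, a membrane tetraspanin, was called in both runs, at -1.98 and -2.99. Its labelled call was lost without stele replicate 2 (adjusted p = 0.109) or 3 (adjusted p = 0.083).

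Of 10 tested genes of cytochrome P450 enzymes, which oxidise many small molecules, 5 were lower in both runs, beside 5.00% of all probe sets, and 0 were higher in either. They were CYP71B26, CYP71B34, CYP84A4, CYP71B28 and CYP71B29, with differences of -1.08 to -1.56 as labelled. The annotation used here named 23 cytochrome P450 genes, most of them of the CYP71B subfamily. Most of the tested genes were also of CYP71B, so these counts do not stand for cytochrome P450 enzymes as a whole. As labelled, 3 were called on values scaled as deposited and 1 at a pseudocount of 64. With 13 arrays 7 were lower, and 3 without stele replicate 3. Of 12 tested glutathione transferase genes, GSTL3, GSTU20 and GSTU26 were lower in both runs, beside 5.00% of all probe sets, and 0 were higher. Without stele replicate 3, GSTU26 lost its call in both runs (-0.85 as labelled and -0.90 on 13 arrays). GSTL3 had levels of 5.66, 5.66 and 5.55 in stele, against 8.44, 8.31 and 8.38 in columella, 5.07, 6.45 and 5.78 in epidermis, 8.45, 8.60 and 8.67 in cortex and 7.35, 7.01 and 7.58 in endodermis. Stele overlapped epidermis alone. GSTL3 differed by -1.88 ± 0.23 as labelled (adjusted p = 0.000179) and by -1.82 ± 0.21 on 13 arrays (adjusted p = 4.11e-06).

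UDP-glucosyltransferases attach sugars to hormones, phenolics and other compounds. Of 38 tested genes 5 were lower in both runs, beside 5.00% of all probe sets, and most members were called in neither direction. A share near that of all probe sets (6.23%) was higher, with 2 genes, UGT73D1 (1.84 and 2.1) and UGT73C7 (1.48 and 1.05). UGT73C7 lost its 13-array call without stele replicate 3 (0.58, adjusted p = 0.337). UGT84A1, which glucosylates hydroxycinnamic acids, had levels of 4.26, 4.33 and 4.13 in stele, against 4.75, 4.39 and 4.15 in columella, 4.24, 5.51 and 4.19 in epidermis, 10.24, 10.35 and 10 in cortex and 6.54, 5.84 and 6.29 in endodermis. Its difference was -2.1 ± 0.26 as labelled (adjusted p = 0.000179) and -2.04 ± 0.23 on 13 arrays (adjusted p = 3.96e-06). UGT76C2, which glucosylates cytokinins, differed by -1.91 and -1.15, and by -0.99 on 13 arrays without stele replicate 3. UGT72E3 and UGT72E2, which glucosylate the precursors of lignin, differed by -1.82 and -1.22 as labelled, and the call of UGT72E2 was lost without stele replicate 2 (adjusted p = 0.188) or 3 (adjusted p = 0.103).

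Of 9 tested ATG8 genes, whose proteins coat the membranes of autophagy, ATG8E, ATG8G, APG8A and APG8H were lower in both runs, beside 5.00% of all probe sets. Their labelled differences ran from -1.3 to -1.01. Without stele replicate 3, 1 of them was called, and 1 was called with a pseudocount of 64. GH3.17, an enzyme that inactivates auxin by joining it to an amino acid, differed by -1.46 and -2.07, and its labelled call was lost without stele replicate 2 (adjusted p = 0.0782). GSO1, a receptor kinase of the endodermal barrier, had levels of 5.09, 7.81 and 6.63 in stele, against 11.87, 11.70 and 12 in endodermis. It differed by -2.14 and -1.15. Its labelled call was lost without stele replicate 1 (adjusted p = 0.0871) or 3 (adjusted p = 0.06), and its 13-array call without stele replicate 3 (adjusted p = 0.144).

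Of 5 tested genes of sulfur assimilation and starvation, APS4 alone was called in both runs, as lower. Among all probe sets, 5.00% were lower and 6.23% higher in both. APS4, an ATP sulfurylase, which activates sulfate for assimilation, had levels of 8.55, 9.27 and 8.09 in stele, against 10.17, 9.90 and 9.81 in columella, 8.56, 9.91 and 8.83 in epidermis, 11.58, 11.67 and 11.34 in cortex and 11.55, 11.14 and 11.48 in endodermis. It differed by -1.86 ± 0.26 as labelled (adjusted p = 0.000443) and by -1.72 ± 0.23 on 13 arrays (adjusted p = 1.91e-05). APS3, another ATP sulfurylase, differed by 0.74 and 0.97, under the threshold of 1. CBL, cystathionine beta-lyase of methionine synthesis, differed by 0.73 as labelled (adjusted p = 0.0546) and by 1.16 on 13 arrays (adjusted p = 0.000368). BGLU28 had levels of 8.93, 11.65 and 8.67 in stele, and its call on 13 arrays (1.64, adjusted p = 0.00653) was lost without stele replicate 2 (0.15, adjusted p = 0.728).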

How the data were processed

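RNA of sorted protoplasts was amplified in 2 cycles and hybridised to Affymetrix arrays, per the labels' protocols. The deposited table holds 22810 probe sets, each with a linear intensity per array. MAS5 is the tool that the submitters' processing notes name. The version, scaling target and genome build are not given in the sources used here. Coordinates are therefore not printed. The values were quantile normalized over all 15 arrays and taken as log2(signal + 16), so changes at dim probe sets are understated. After removal of 64 control probe sets, a probe set had to exceed the 40th percentile on at least 3 arrays. With limma 3.58.1 in R 4.3.3, a mean per population was fitted (lmFit, eBayes with a variance trend), and stele was compared with the unweighted mean of the other 4 means and with each of them. P-values were adjusted by Benjamini-Hochberg over all tested probe sets. The fit was tested on simulated data. Tables and figures were made with Python 3.11.15, numpy 2.4.6, pandas 2.3.3 and matplotlib 3.10.9.

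The labels do not say whether replicates are separate plantings. The p-values then reflect only how far these samples spread, which may be technical. The members, gene lists, families and tests were chosen with earlier results of these data known. Names were taken from the platform's annotation, updated with RefSeq genes of TAIR10.1: 13513 probe sets had 1 symbol, 503 had several and 8794 are unnamed here. Among several probe sets of a gene, the one of highest mean was used. Named by rule were PHV, LHW and scpl35, the 15 genes higher and 10 lower in both runs with the largest smaller difference, the 10 higher and 5 lower than in each other population on 13 arrays, the 5 leading genes of either run alone, and up to 4 members of each list called in both runs, or all tested members of marker and vascular lists. Other named genes were picked with their values in view. The alternatives were the deposited scaling, pseudocounts of 1 and 64, a filter at the 60th percentile or none, a fit lacking the variance trend, array weights, a replicate block and leaving out each array. The same were tried on 13 arrays, chosen after seeing the data.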

Additional observations from a re-analysis of the deposited data

How the results depend on the processing

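Counts of probe sets as labelled were 1048 higher, 950 lower, 992 and 796 in both runs, and 0 and 0 against each other population. With both doubtful arrays left out they were 2039 higher, 1737 lower, and 442 and 209 against each. Array weights gave 1877 higher, 1571 lower, 1819 and 1532 in both runs, and 288 and 124 against each, with weights of 0.187 for stele replicate 1 and 0.164 for epidermis replicate 2. A pseudocount of 64 gave 627 higher, 531 lower, and 600 and 441 in both runs, and a pseudocount of 1 gave 1 probe set lower than in each. With single arrays left out, the counts ran from 657 to 1789 higher, 749 to 1439 lower, 557 to 1732 and 540 to 1403 in both runs, and 0 to 3 against each in either direction. With the replicate block they were 1080 higher, 974 lower, and 995 and 803 in both runs. Of 30 pairs of arrays with the same number, 6 deviated together (correlation over 0.1), beside 6 of 60 pairs with different numbers. The median correlations were -0.0121 and -5e-04. Deviations were taken from population means that include the doubtful arrays, so these counts do not settle whether the numbers pair the arrays. The other alternatives on the labelled arrays kept the counts within 1.5 times. On 13 arrays, a pseudocount of 64 gave 1031 lower and 80 lower than in each other population, a pseudocount of 1 gave 323 lower than in each, and the deposited scaling gave 114. Of the 992 probe sets, 576 were called higher as labelled under all 8 alternatives other than leaving single arrays out, and 479 with each single array left out. Of the 796, 411 and 430 were called lower in this way. The cause was not tested. No probe set was called in opposite directions in the labelled and the 13-array run. Some named genes that were not called as labelled did change sign between these runs. AT5G66390 differed by -0.43 as labelled and by 1.82 on 13 arrays, and HCT by -0.43 and 0.28. Arrays give no read depth.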

Other observations

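Mitochondrion-encoded transcripts were examined after their values were seen. Of 14 tested genes 4 were higher in stele in both runs, beside 6.23% of all probe sets, and 0 were lower. They were nad4, orfX, ccb203 and ccb452, of which ccb203 and ccb452 take part in the making of cytochrome c. The levels of ccb452 were 8.48, 9.81 and 8.82 in stele, against 7.56, 6.95 and 7.58 in columella, 8.60, 9.33 and 8.31 in epidermis, 8.15, 7.63 and 6.54 in cortex and 7.2, 6.72 and 7.33 in endodermis. It differed by 1.38 as labelled and by 1.73 on 13 arrays. Without stele replicate 2, 0 of the 14 were called as labelled, and 4 were called under the deposited scaling.

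Cell wall families gave few calls in both runs. Of 19 tested TBL genes, TBL19 (-1.74 and -1.21) and TBL30 (-1.68 and -1.21) were lower in both runs, beside 5.00% of all probe sets, while TBL36 was higher on 13 arrays alone. TBL30 lost its 13-array call without stele replicate 3 (adjusted p = 0.0766). IRX15-L, which takes part in making xylan of secondary walls, differed by -1.76 as labelled and by -1.40 on 13 arrays. Its levels were 5.53, 6.18 and 6.34 in stele, against 9.20, 9.18 and 9.32 in cortex and 9.17, 8.25 and 9.0 in endodermis. Of 22 tested expansin and XTH genes, EXLA2 (1.58 and 1.19) and XTH18 (1.20 and 1.47) were higher in both runs, beside 6.23% of all probe sets. None was lower in both. EXLA2 differed by 0.98 on 13 arrays without stele replicate 2. On 13 arrays 5 of the 22 were higher and 2 lower, beside 12.8% and 10.9%, with a median of -0.03. EXPA15, a wall-loosening expansin, differed by 1.46 as labelled (adjusted p = 0.0651) and by 2.63 on 13 arrays (adjusted p = 2.4e-07). EXPA9 differed by -1.02 and -2.11. Of 18 tested serine carboxypeptidase-like genes, 0 were called in both runs in the same direction, and on 13 arrays 6 of 17 were lower and 2 higher, beside 10.9% and 12.8% of all probe sets, with a median of -0.37. Among the 17, scpl35 alone was higher than in each other population.

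Dim genes that the filter left untested on 13 arrays included IAA31, an auxin-response repressor, and PID2, a relative of the auxin transport kinase PINOID. IAA31 had levels of 4.42, 6.18 and 6.41 in stele, against 4.08, 5.6 and 4.08 in epidermis, and differed by 1.89 on 13 arrays without the filter (adjusted p = 1.74e-05). PID2 had levels of 4.16, 6.49 and 7.25 in stele, against 4.16, 6.66 and 4.09 in epidermis, and differed by 2.63 (adjusted p = 7.88e-07). Both were higher than in each other population there.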
